A study of Caenorhabditis elegans with 4 samples.

Results

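LAG-1 is the only CSL-family DNA-binding protein of the worm Caenorhabditis elegans. In the Notch pathway, binding of a ligand frees the intracellular part of a receptor, LIN-12 or GLP-1 in the worm, which joins LAG-1 and the co-activator SEL-8 on DNA and turns on target genes. The pathway is known for its part in vulval and gonadal cell fates, and GLP-1 signalling keeps germline stem cells dividing through larval life into the adult.

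The regions described here are the low-background places that 1 of 3 LAG-1 immunoprecipitations (IPs) found and the other 2 did not. Whole worms of the Bristol strain, synchronised by bleaching and grown to the L4 stage on NA22 bacteria, gave 4 DNA libraries for chromatin immunoprecipitation with sequencing. These were 2 IPs with an antibody to GFP, numbered 2 and 3 in the labels, 1 IP with an antibody to FLAG, and 1 input DNA library made without an antibody. They are called GFP 2, GFP 3, FLAG 1 and input here. The labels used here name neither the tagged allele or transgene nor the promoter that drives it, and whole animals mix all tissues.

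The members were chosen by measured values: the pileup (tags over a peak's summit) and fold enrichment in GFP 2, and the absence of a called peak in the other 2 lists. A GFP 2 peak was kept when its background, recovered from its pileup and fold, was at most 3 times the mean expected over the genome, and when it shared no base with any deposited peak of FLAG 1 or GFP 3. That left 332 of the 847 GFP 2 peaks, out of 2121 peaks deposited over the 3 lists. Of the 565 low-background GFP 2 peaks, the 332 were 58.8% (95% Wilson interval 54.7 to 62.7). The other 233 overlapped another list: 165 overlapped FLAG 1 alone, 6 GFP 3 alone and 62 both. Of the 282 GFP 2 peaks above the background limit, 53 (18.8%) were in neither other list, so the unshared share differed with the background. Every strength and overlap below belongs to the contrast that chose the members, so these values are a description, and no test was made of them.

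GFP 2 was the shallowest of the 3 IPs, with 6858855 tags after duplicate removal, against 9404288 in GFP 3 and 12186235 in FLAG 1. The genome-wide mean background was 4.42 tags in GFP 2, 5.02 in GFP 3 and 7.18 in FLAG 1. Low-background peaks called in 1 list alone were also common in FLAG 1, at 414 of 649 (63.8%, interval 60.0 to 67.4). GFP 3, the other library made with the GFP antibody, had 1 such peak among its 76. Those 76 came from 399 GFP 3 peaks, against 565 low-background peaks of 847 in GFP 2 and 649 of 875 in FLAG 1. GFP 3 thus offered few low-background peaks for any GFP 2 peak to overlap. Its rate of redundant tags was 0.27, against 0.17 in GFP 2 and 0.15 in FLAG 1. GFP 2 is 1 library, so the antibody, any difference between batches of worms and the library itself cannot be told apart for its unshared peaks.

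The 332 peaks were weak and narrow. Their fold enrichment had a median of 3.32 (quartiles 2.95 and 3.87, range 2.30 to 9.50), against 4.50 (quartiles 3.57 and 5.90, range 2.33 to 19.8) for the 233 low-background GFP 2 peaks that overlapped another list. The pileup at the summit had a median of 19 tags (quartiles 17 and 21), against 27 (quartiles 21 and 36). A pileup of 14 tags was the lowest that GFP 2 called at low background, and 17 of the 332 peaks stood exactly there. In all, 222 of the 332 had 20 tags or fewer, against 52 of the 233. A low fold and a small width were not particular to GFP 2. The 414 low-background FLAG 1 peaks in neither other list had a median fold of 3.11 (quartiles 2.69 and 3.86) in their own library. Their median width was 105 bp (quartiles 66.25 and 208.75).

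The significance that the caller gave them was modest as well. The median −log10 q-value was 3.40 for the GFP 2-alone peaks (quartiles 2.35 and 4.85), against 7.86 for the overlapping peaks (quartiles 4.67 and 14.2). A −log10 q-value above 10 was reached by 12 of the 332 and by 90 of the 233. The highest pileup among the 332 was 56 tags, under the limit of 116 that duplicate removal set on GFP 2 pileups.

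The recovered background of most of these places lay at the genome-wide mean or a little above it. Its lowest value was 4.42 tags among the 332 and among the 233 overlapping peaks, which is that mean itself. The mean thus acted as a floor. Values at this floor do not show how low the local input was, and the selection rule capped the background from above. The recovered background was within 1% of that mean at 156 of the 332 peaks and at most 1.5 times it at 310. The corresponding counts were 91 and 196 of the 233 overlapping peaks. Over the 332, the median was 1.03 times the mean and the highest was 2.04 times, so the limit of 3 fell in an empty stretch. The 4 members nearest under the limit tied at 2.04 times. They were chromosome I from 5316506 to 5316636 (ce10 build, as are all positions here; fold 2.40), chromosome II from 2716928 to 2716992 (fold 4.70), and chromosome IV from 665140 to 665266 (fold 2.90) and from 4390568 to 4390641 (fold 2.30). The peaks just above it that met the overlap condition were chromosome III from 13447664 to 13447737, at 3.17 times the mean with a fold of 2.27, and chromosome V from 14754797 to 14754856, at 3.39 times with a fold of 3.44. No raised-background GFP 2 peak lay within 5000 bp of any of the 332, and 2 of the 332 had one within 20000 bp.

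**Figure D1:**
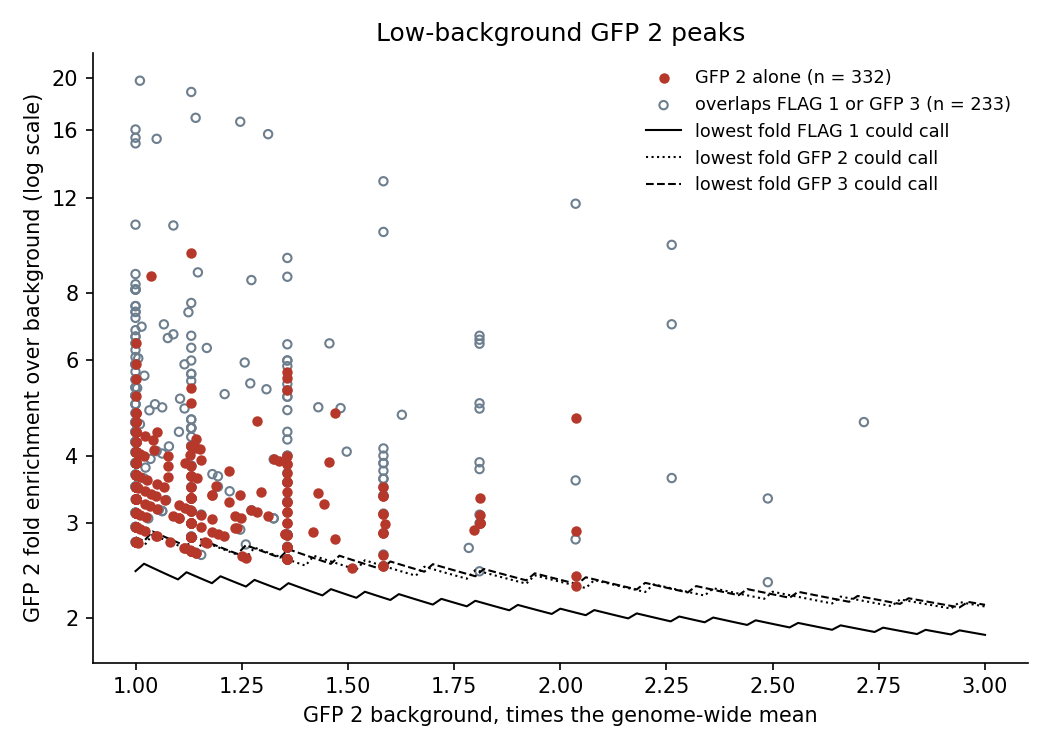
GFP 2 fold enrichment (log scale) against GFP 2 background in multiples of the genome-wide mean, for the 332 GFP 2-alone peaks (filled) and the 233 that overlap FLAG 1 or GFP 3 (open). Lines give the lowest fold each list could call at that background. The filled points gather at the left and low in the plot, between folds of 2.30 and 9.50, while open points reach 19.8.

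How often a GFP 2 peak stood alone fell as its fold rose. Between folds of 2.5 and 3, 103 of 126 low-background peaks were in GFP 2 alone (81.7%, interval 74.1 to 87.5). Between 3 and 3.5 it was 90 of 116 (77.6%), between 3.5 and 4 it was 71 of 108 (65.7%), and between 4 and 5 it was 53 of 109 (48.6%, interval 39.4 to 57.9). Above 5-fold the share was 10.2% (10 of 98, interval 5.64 to 17.8). The weakest class, at a fold of 2.5 or less, held 8 peaks, of which 5 were in GFP 2 alone. The intervals cover counting error over peaks only.

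**Figure D2:**
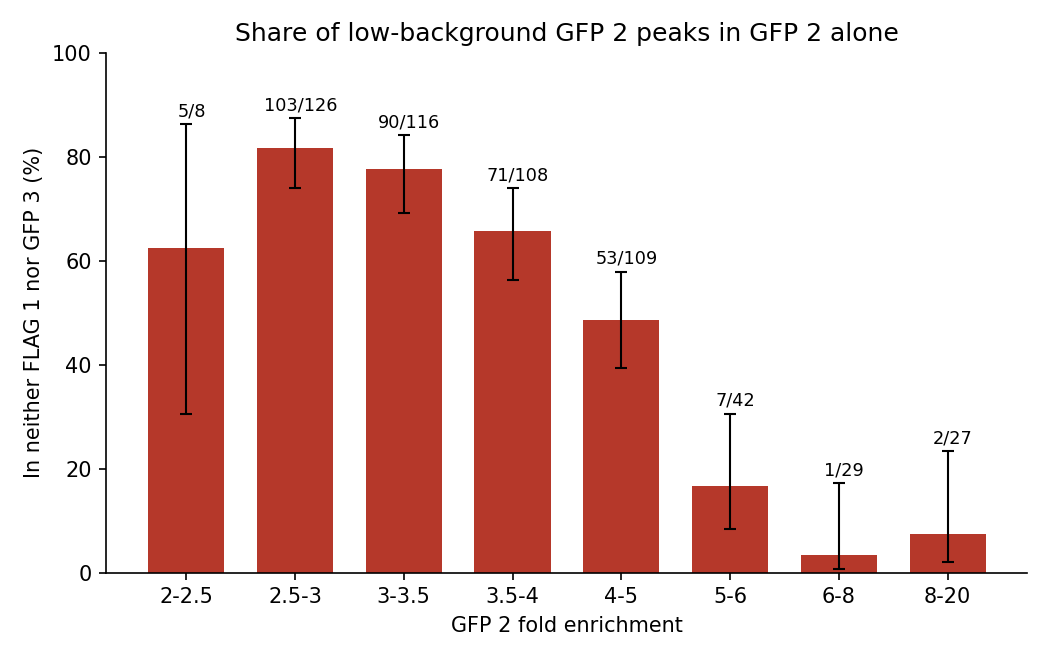
Share of low-background GFP 2 peaks found in neither FLAG 1 nor GFP 3 (%), by GFP 2 fold enrichment. Bars are shares with 95% Wilson intervals, and the fractions give GFP 2-alone peaks over all peaks in the class. The share is 81.7% between folds of 2.5 and 3 and at most 16.7% in each class above 5.

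The calling limit of each list was computed from its lowest deposited significance and set beside these folds. At the genome-wide mean, a peak needed a pileup of 14 tags in GFP 2 (fold 2.77), against 16 tags in GFP 3 (fold 2.83) and 19 tags in FLAG 1 (fold 2.45). At each member's own background relative to the mean, the GFP 2 fold was at or above the FLAG 1 limit in all 332 cases and at or above the GFP 3 limit in 288. The FLAG 1 count was fixed in advance and says nothing about the members. At all their backgrounds, as at the mean, the fold needed in GFP 2 was above that needed in FLAG 1. For the other 44, an equal fold in GFP 3 would not have been detectable. The caller also requires the signal to stay high over a fragment length, which this limit leaves out.

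Folds of different libraries are not on one scale, because depth and fragment length differ. Where both lists called a low-background peak at one place, the FLAG 1 fold was a median of 0.746 times the GFP 2 fold (quartiles 0.608 and 1.012, 241 pairs), and the GFP 3 fold 0.670 times (quartiles 0.540 and 0.848, 71 pairs). These pairs had to pass in both lists, which favours high values. Scaled by these medians, 194 of the 332 GFP 2-alone peaks would still have reached the FLAG 1 limit and 40 the GFP 3 limit. These counts depend strongly on the ratio used. With the lower and upper quartile ratios they were 71 and 332 for FLAG 1, and 11 and 166 for GFP 3. The 332 was again fixed in advance, since the ratio of 1.012 raises each fold.

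A few GFP 2-alone peaks were strong. The strongest lay on chromosome IV from 11190885 to 11191330, with 56 tags at its summit at 11191105 (exact 95% Poisson interval 42.3 to 72.7) over a background of 5.0, a fold of 9.50 and a −log10 q-value of 34.4. Its nearest FLAG 1 peak was 4220 bp away and its nearest GFP 3 peak 4255 bp away. The next lay on chromosome IV from 13223521 to 13223691, with 47 tags (interval 34.5 to 62.5) over 4.58, a fold of 8.60. Its nearest FLAG 1 peak was 1673 bp away and its nearest GFP 3 peak 137072 bp away. A GFP 2 peak that overlapped another list had its summit nearby, at 13225397 (fold 5.50). The 2 peaks from 11190885 and from 13223521 were the only members above 8-fold, against 25 of the overlapping peaks. Both cleared the FLAG 1 limit at their background (folds of 2.41 and 2.49) by more than 3 times.

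Below them, the values closed up. Chromosome I from 7726576 to 7726730 had 34 tags and a fold of 6.46, with its nearest FLAG 1 peak 67548 bp away. Chromosome I from 7660110 to 7660392 had 31 tags and a fold of 5.90, with its nearest FLAG 1 peak 1082 bp away. A pair of neighbouring peaks on chromosome X had 39 and 38 tags over a background of 6.0, and folds of 5.71 (1454363 to 1454594) and 5.57 (1454665 to 1454848). Their edges were 71 bp apart.

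The remaining 6 of the first 12 had folds of 4.80 to 5.53. On chromosome I, the peak from 4261692 to 4261754 had 29 tags and a fold of 5.53. Chromosome X held 13158991 to 13159079 (31 tags, fold 5.33) and 13532677 to 13532736 (29 tags, fold 5.0). Chromosome IV held 452076 to 452367 (36 tags, fold 5.29). Chromosome II held 7337608 to 7337924 (27 tags, fold 5.17) and 13681140 to 13681347 (35 tags, fold 4.80). Leaving aside the first, the Poisson intervals of these pileups all overlap one another, which does not show that the pileups are equal. The order is by fold, for which no interval was computed, so how firm it is was not tested.

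**Figure D3:**
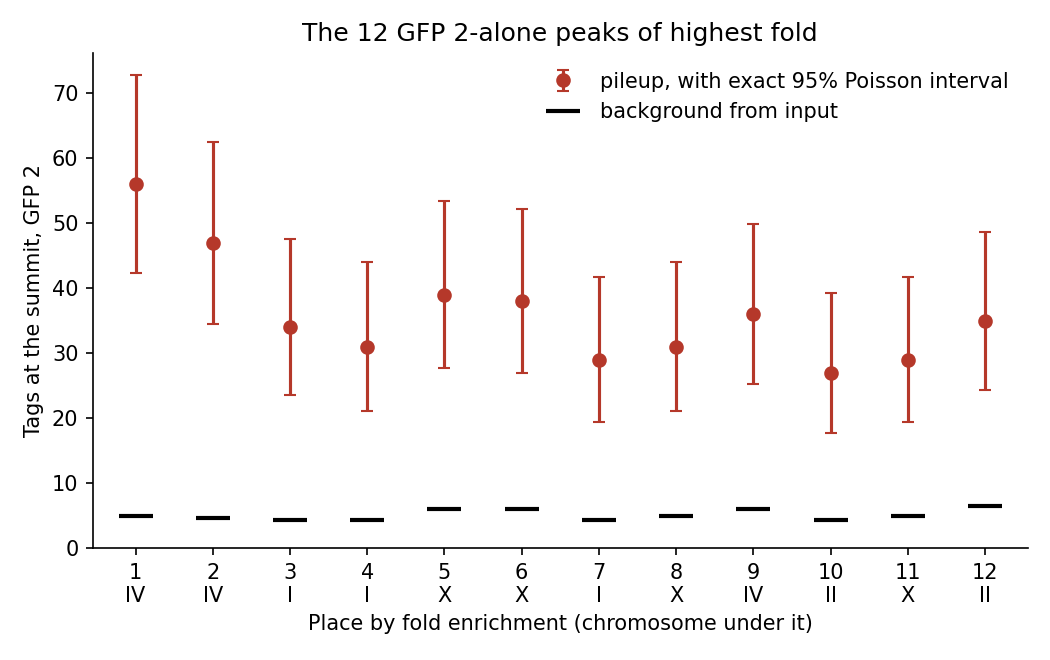
Tags at the summit in GFP 2 for the 12 GFP 2-alone peaks of highest fold, in order of fold with the chromosome under each place. Points are pileups with exact 95% Poisson intervals, and black dashes are the background. The first stands at 56 tags and the others between 27 and 47, over backgrounds of 4.42 to 6.50.

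In shape, the 332 peaks were mostly narrower than the overlapping peaks, though few were at the smallest width the caller reports. The median width was 96 bp (quartiles 73.0 and 138, highest 446), against 203 bp (quartiles 107 and 337, highest 1634) for the overlapping peaks. Widths of at most 100 bp were seen in 174 of the 332 and 57 of the 233, and 18 of the 332 were at the 58 bp minimum that the fragment length sets. Width and fold come from one pileup, so the width is no separate evidence. A single summit was reported in 297 of the 332 (89.5%, interval 85.7 to 92.3), against 137 of the 233 (58.8%, interval 52.4 to 64.9). The summit lay at a median of 0.467 of the width from the peak's start. The spread was wide (quartiles 0.272 and 0.618, range 0.0125 to 0.971), so many summits were off the middle.

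Peaks with several summits were few. There were 31 with 2 summits and 4 with 3 or more, and neighbouring summits within a peak were a median of 88.5 bp apart (quartiles 73.5 and 97.5). The most, 4, were on chromosome III from 7729384 to 7729716, with a fold of 3.41. Those with 3 summits were chromosome X from 14557362 to 14557631 (fold 4.06) and the peaks on X from 1454363 and on II from 7337608 described above.

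The 332 peaks were spread over all 6 chromosomes. Chromosome X held 66 of them (19.9%, interval 15.9 to 24.5), IV 64, II 63, V 50, I 45 and III 44. Of the overlapping peaks, X held 54 of 233 (23.2%, interval 18.2 to 29.0), IV 38, II 36, V 39, I 32 and III 34. Read the other way, the share of low-background GFP 2 peaks that stood alone was lowest on X, at 55.0% (interval 46.1 to 63.6), and highest on II, at 63.6% (interval 53.8 to 72.4). These intervals overlap for all 6 chromosomes, and no test was made. The median fold of the GFP 2-alone peaks was also even, from 3.26 on I to 3.40 on III.

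**Figure D4:**
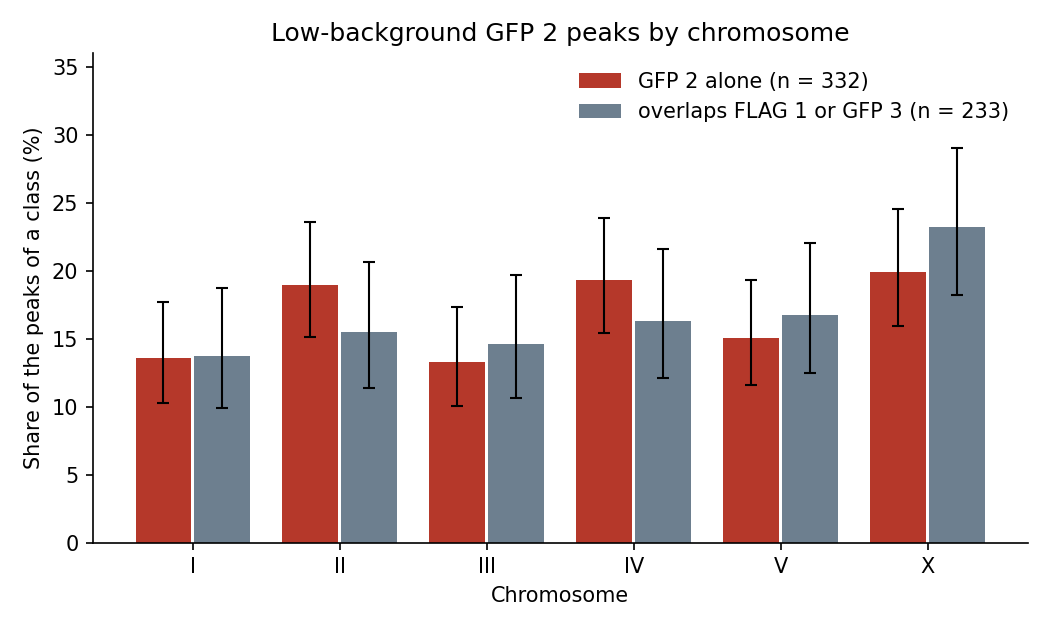
Share of peaks on each chromosome (%) among the 332 GFP 2-alone peaks (left bars) and the 233 overlapping low-background GFP 2 peaks (right bars), with 95% Wilson intervals. On every chromosome the 2 intervals overlap, as on X with 19.9% and 23.2%.

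Position along the chromosomes was taken as the share of the way between the first and the last deposited peak of any list. Worm autosomes have gene-rich centres flanked by arms that recombine more often. On the 5 autosomes, 64 of 266 GFP 2-alone peaks (24.1%, interval 19.3 to 29.5) lay in the outer 20% at either end, against 50 of 179 overlapping peaks (27.9%, interval 21.9 to 34.9). On X it was 24 of 66 (36.4%, interval 25.8 to 48.4), against 23 of 54 (42.6%, interval 30.3 to 55.8). The intervals of both classes overlap in each case. These shares add both ends, each 20% of the span, so they are not to be set against 20%. Taken singly on the autosomes, the first and last 20% held 10.5% and 13.5% of the GFP 2-alone peaks, and the middle 20% held 27.1%. For the overlapping peaks the values were 16.2%, 11.7% and 27.9%.

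Most GFP 2-alone peaks stood over 1000 bp from any called place of the other lists. The distance expected for sites spread evenly over the genome was not computed, so these distances are not called long or short. The nearest FLAG 1 peak was a median of 24628 bp away and the nearest GFP 3 peak 191590 bp, with 875 peaks in the FLAG 1 list and 399 in that of GFP 3. In all, 296 of the 332 (89.2%, interval 85.4 to 92.1) lay over 1000 bp from every FLAG 1 and GFP 3 peak. The nearest other GFP 2 peak was a median of 21574 bp away, and 55 of the 332 had one within 1000 bp. Among themselves, 37 had another member within 1000 bp, and joining members within 200 bp left 320 separate places.

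**Figure D5:**
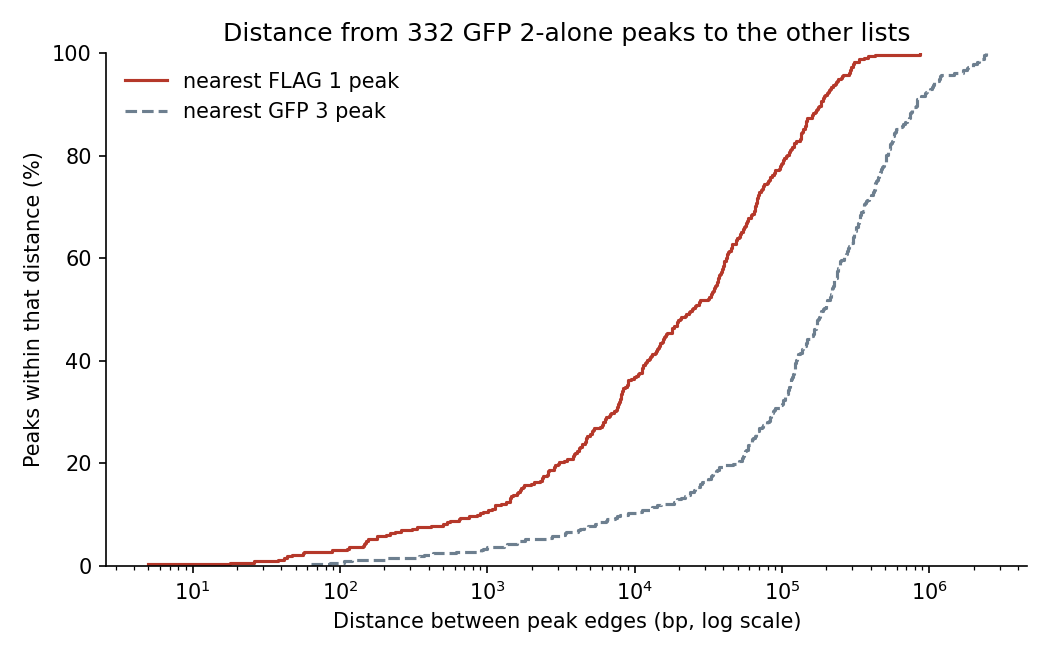
Cumulative share of the 332 GFP 2-alone peaks (%) by distance in bp (log scale) from the peak's edge to the nearest FLAG 1 peak (solid) and the nearest GFP 3 peak (dashed). At 1000 bp the lines stand at 10.5% and 3.61%, and the solid line lies left of the dashed one.

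The overlap condition left some near misses. There were 20 members within 200 bp of a peak of another list, 19 of them beside a FLAG 1 peak and 4 beside a GFP 3 peak, of which 3 were beside both. The 19 had 18 distinct FLAG 1 neighbours, since a pair of members on chromosome III shared one. The 18 had a median fold of 2.70 in their own list. Over the 19 members, the neighbour's summit was a median of 176 bp from the member's summit (range 86 to 619). For 11 of the 19, the FLAG 1 neighbour itself overlapped a different GFP 2 peak, so that the member lay on the flank of a place both libraries found. The other 8 lay beside 7 FLAG 1 peaks that overlapped no GFP 2 peak. The smallest overlaps on the other side of the condition were 11 bp and 19 bp, for the GFP 2 peaks on chromosome V from 9343544 to 9343609 (fold 2.92) and from 9273811 to 9273940 (fold 3.14).

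The closest of these was on chromosome I from 7657973 to 7658062, with a fold of 3.67 and a summit at 7658047. A FLAG 1 peak with a fold of 2.70 and a summit at 7657930 lay on its left, and the edges were 5 bp apart. About 1 kb further on, the member from 7659066 to 7659139 (fold 4.24) lay 38 bp from a FLAG 1 peak with a fold of 3.06. Neither FLAG 1 peak overlapped a GFP 2 peak. With the member from 7660110 to 7660392, place 4 by fold, 3 members thus stood in one short stretch of chromosome I. They did not stand there alone. GFP 2 peaks that overlapped another list had summits in or beside the stretch at 7657297 (fold 3.14), 7657668 (fold 3.51) and 7658670 (fold 3.32).

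On chromosome X, the member from 1504620 to 1504700 (fold 3.49) lay 42 bp from the FLAG 1 peak of 1503769 to 1504578, which had a fold of 10.4. Its summit was 619 bp from the FLAG 1 summit, and no GFP 2 peak overlapped that FLAG 1 peak. On chromosome II, the member from 11759668 to 11759853 (fold 2.75) was 18 bp from a FLAG 1 peak with a fold of 2.94, and the member from 8015989 to 8016084 (fold 3.07) was 26 bp from one with a fold of 2.45. Both of those FLAG 1 peaks overlapped another GFP 2 peak, with folds of 6.06 and 3.88 in GFP 2.

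The densest 20000 bp held 5 members, on chromosome V between 6227514 and 6247409. Their folds were 3.0, 3.32, 3.14, 3.32 and 3.32 in order of position, on pileups of 26, 17, 21, 17 and 17 tags. The first sat on a background of 8.0 tags, 1.81 times the genome-wide mean. One more GFP 2 peak lay between them, and the last member was 556 bp from a FLAG 1 peak and 611 bp from a GFP 3 peak.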

How the data were processed

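ChIP-seq peak lists of 3 IPs were analysed, called per library against 1 input with MACS 2.1.0.20140616, a q-value limit of 0.05, summit splitting, 1 tag kept per position and the larger library sampled down, per the file headers. The fragment lengths used were 58 bp (GFP 2), 48 bp (GFP 3) and 53 bp (FLAG 1), close to the 49 bp tag size, and pileups, folds and widths rest on them. Positions are in ce10, which the submitters' processing notes name. No source used here names the aligner.

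The deposited pileup is a signal in tags. The deposited fold is the ratio of pileup plus 1 to background plus 1. The deposited significance values are −log10 p-values and −log10 q-values. The background was computed back from pileup and fold, and Poisson p-values recomputed from it lay within 6.08e-05 of those deposited, on the −log10 scale. The genome-wide mean is tags after filtering times fragment length over the effective genome size of 90000000. The summit of highest pileup stood for each peak, and overlap meant 1 bp.

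A list's calling limit is the lowest pileup whose Poisson p-value reached the lowest deposited −log10 p-value of that list. Distances run between edge positions. Intervals for shares are 95% Wilson intervals and for pileups exact Poisson intervals, and both cover counting error only. Code was tested on simulated peaks. The named peaks are the first 12 by fold, those nearest the background limit (with ties), the 5 with most summits and the 5 nearest another list, and the densest 20000 bp. The 2 smallest overlaps were added after their values were seen. Members and measures were chosen with earlier results of these data known. The designed motif search and gene names were not run, since no ce10 genome or annotation was used here. The tools were Python 3.11.15 with matplotlib 3.10.9, scipy 1.17.1, numpy 2.4.6 and pandas 2.3.3.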

Additional observations from a re-analysis of the deposited data

How the results depend on the processing

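Of 49 alternative values for 5 results, 38 stayed within 1.5 times (counts) or within the 95% interval of the value given above, and all 10 for the share on chromosome X did (19.2% to 23.8%). Changing the background limit to 2 or 5 times the mean gave 328 and 340 peaks. Asking for overlap with 50% of the GFP 2 peak left 407 peaks, with a median width of 108 bp and 72.7% over 1000 bp from the other lists. At a −log10 q-value above 5 there were 80 peaks, with a median fold of 4.10, a median width of 129.5 bp and 93.8% over 1000 bp away. Above 3-fold there were 224 peaks, with a median fold of 3.57 and a median width of 104.5 bp. Leaving out 1 of the other lists gave 338 peaks (without GFP 3) and 497 (without FLAG 1). The median fold was then 3.32 and 3.51, the median width 97 and 107 bp, and the share over 1000 bp away 89.6% and 97.0%, in the same order. Leaving out GFP 3 thus added 6 peaks. The counts of 224 and 497 were among those within 1.5 times of 332, but close to that limit. Other lists with folds above 2 alone, or the summit of highest fold, gave 332. No paired analysis was possible because the groups share no replicate of the IP and the result comes from no test. The planned motif search was not run. Of the 332 peaks, 222 had pileups of 20 tags or fewer, where the lowest called was 14, and the effect of depth on which were called was not tested.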
